A study of Drosophila melanogaster with 2 samples.

Results

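A cluster of 9 binding peaks of the zinc finger protein CG15073 was recorded at the 5′ end of Raf on the fly X chromosome, where 8 summits fell inside the gene and 1 fell between Raf and its upstream neighbour CG2865. The members were all peaks whose summit, the position of highest signal, lay inside Raf or within 10 kb of it. They were 9 of the 1445 peaks in the list kept by the authors after the irreproducible discovery rate (IDR) step, which compares replicates. The kept peaks were the strongest 1445 of the pooled relaxed list by signal, so a member need not be strong in each replicate. The same rule took 21 of 23030 peaks from the pooled relaxed list, 32 of 30000 from the relaxed list of replicate 3 and 15 of 30000 from that of replicate 4. The gene was chosen by its number of summits in these lists, so the number, spacing, signals and ranks of the members are descriptions and carry no test.

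The assay was chromatin immunoprecipitation followed by sequencing (ChIP-seq), which recovers DNA bound by a chosen protein. Flies of a transgenic line stably carried CG15073 with enhanced GFP at its C-terminal end, and an antibody to GFP was used on whole embryos, 0 to 24 h old and of both sexes. The series has 1 group of 2 biological replicates, numbered 3 and 4, without a second genotype, treatment or stage. Embryos of all ages and cell types were pooled in each library, so a peak does not tell in which cells or at which age the protein was bound, and the fusion protein stands in for the native one.

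Raf is a serine/threonine kinase that the GTPase Ras85D brings to the membrane and activates. It phosphorylates the kinase Dsor1 (MEK), which phosphorylates rl (ERK), and this relay carries signals from receptor tyrosine kinases such as tor at the embryo's ends and Egfr in many tissues. CG15073 belongs to the zinc finger proteins, a large class of DNA-binding factors.

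Raf (FBgn0003079) spans X:2295466-2343870 on the plus strand of dm6, a length of 48405 bp. The Ensembl annotation gives it 2 transcripts. Raf-RE begins at 2295466, has non-coding exons 1 and 2, and reaches the coding exons across intron 2 of 43637 bp (X:2296354-2339990). Raf-RA begins at 2340298, close to the coding start at 2340886. All 8 Raf summits lay in non-coding exon 2 or in the first part of intron 2, from 754 to 8573 bp downstream of the Raf-RE start. The last of them lay 36259 bp upstream of the Raf-RA start and 36847 bp before the coding start.

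The DNA of 5 of the 9 peaks is shown to let the strongest members be compared with the weakest and with the member outside Raf. Each window holds 201 bp centred on the summit, 5′ to 3′ on the plus strand of the RefSeq Release 6 (dm6) genome, and peaks are numbered 1 to 9 from left to right. Capitals mark letters that match one of the searched motifs on either strand: GAGAG, GAGAGAGA, CACACACA or a run of A. Peak 1 is the member beside CG2865, peaks 7, 4 and 6 are the strongest members in that order, and peak 9 is the weakest.
peak 1, X:2293606-2293806: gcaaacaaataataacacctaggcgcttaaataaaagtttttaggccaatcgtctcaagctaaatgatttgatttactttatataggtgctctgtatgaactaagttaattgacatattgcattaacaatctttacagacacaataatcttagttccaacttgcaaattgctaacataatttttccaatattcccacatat
peak 4, X:2297643-2297843: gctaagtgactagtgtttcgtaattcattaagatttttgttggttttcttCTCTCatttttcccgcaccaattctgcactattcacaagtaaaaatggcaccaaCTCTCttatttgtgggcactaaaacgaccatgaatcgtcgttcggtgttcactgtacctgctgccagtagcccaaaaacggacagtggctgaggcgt
peak 6, X:2300603-2300803: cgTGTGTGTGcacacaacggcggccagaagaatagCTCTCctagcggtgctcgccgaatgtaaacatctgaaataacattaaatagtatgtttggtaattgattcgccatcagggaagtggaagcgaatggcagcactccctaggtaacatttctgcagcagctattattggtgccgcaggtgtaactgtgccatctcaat
peak 7, X:2302336-2302536: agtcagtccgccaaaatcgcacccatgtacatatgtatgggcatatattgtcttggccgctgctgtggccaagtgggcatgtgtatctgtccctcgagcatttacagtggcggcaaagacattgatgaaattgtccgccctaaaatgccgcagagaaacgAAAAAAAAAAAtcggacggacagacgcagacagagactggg
peak 9, X:2303939-2304139: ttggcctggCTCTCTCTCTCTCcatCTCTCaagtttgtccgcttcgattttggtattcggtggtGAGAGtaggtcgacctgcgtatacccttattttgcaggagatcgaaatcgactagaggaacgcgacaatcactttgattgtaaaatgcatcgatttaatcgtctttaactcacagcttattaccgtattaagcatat

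GAGAG, the core bound by GAGA factor, was found in 4 of the 9 windows (peaks 2, 4, 6 and 9), against 23.5% of the windows of all 1445 IDR peaks. The longer GAGAGAGA, which contains GAGAG and resembles the core of the X-linked elements bound by the dosage compensation complex, was found in peak 9 alone, against 1.80% of all windows. With 150 bp to each side of the summit, GAGAG was found in 7 of 9 windows against 37.5%, and GAGAGAGA in 3 of 9 (peaks 2, 7 and 9) against 4.64%. At this width the windows of peaks 2 and 3, both among the 7, overlap, so the same site can count for both. With 50 bp to each side, GAGAG was left in 2 windows and GAGAGAGA in 0. Of the 7 members with GAGAG in the widest window, 2 thus had it next to the summit.

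A run of AAAAAAAA was present in peaks 3, 7 and 8, against 13.5% of all windows, while the homeodomain core TAATTA was present in peak 5 (16.5% of all windows) and CACACACA in peak 6 (3.32%). The letters of the CTCF core AGNNGGCGC (3.60% of all windows), TATATATA (3.39%), the DREF element TATCGATA (1.31%), the Zelda site CAGGTAG (1.25%) and the Tramtrack site CAGGACC (0.138%) were in no member window. Peak 1 held none of the 10 motifs.

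The members had little sequence in common with each other. Over their 36 pairs, the longest run of bases shared on either strand was 7 to 11 bp, with a median of 8. Among all 6-base words, the most widespread were found in 5 of 9 windows, and these were common words such as ACACAA, which 17.1% of all IDR windows held. The word ATCGTC was in 4 member windows and in 3.11% of all windows, and it was singled out after its values were seen. The G and C content of 8 member windows was 39.8% to 49.3%, above the median of 35.3% for all IDR windows, while peak 1 lay below it at 29.9%. The median over the 9 members was 43.3%. The soft-masked share, which marks repeats and low-complexity DNA, was 0% to 36.8% with a median of 10.4%, against a median of 19.9%.

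**Figure D1:**
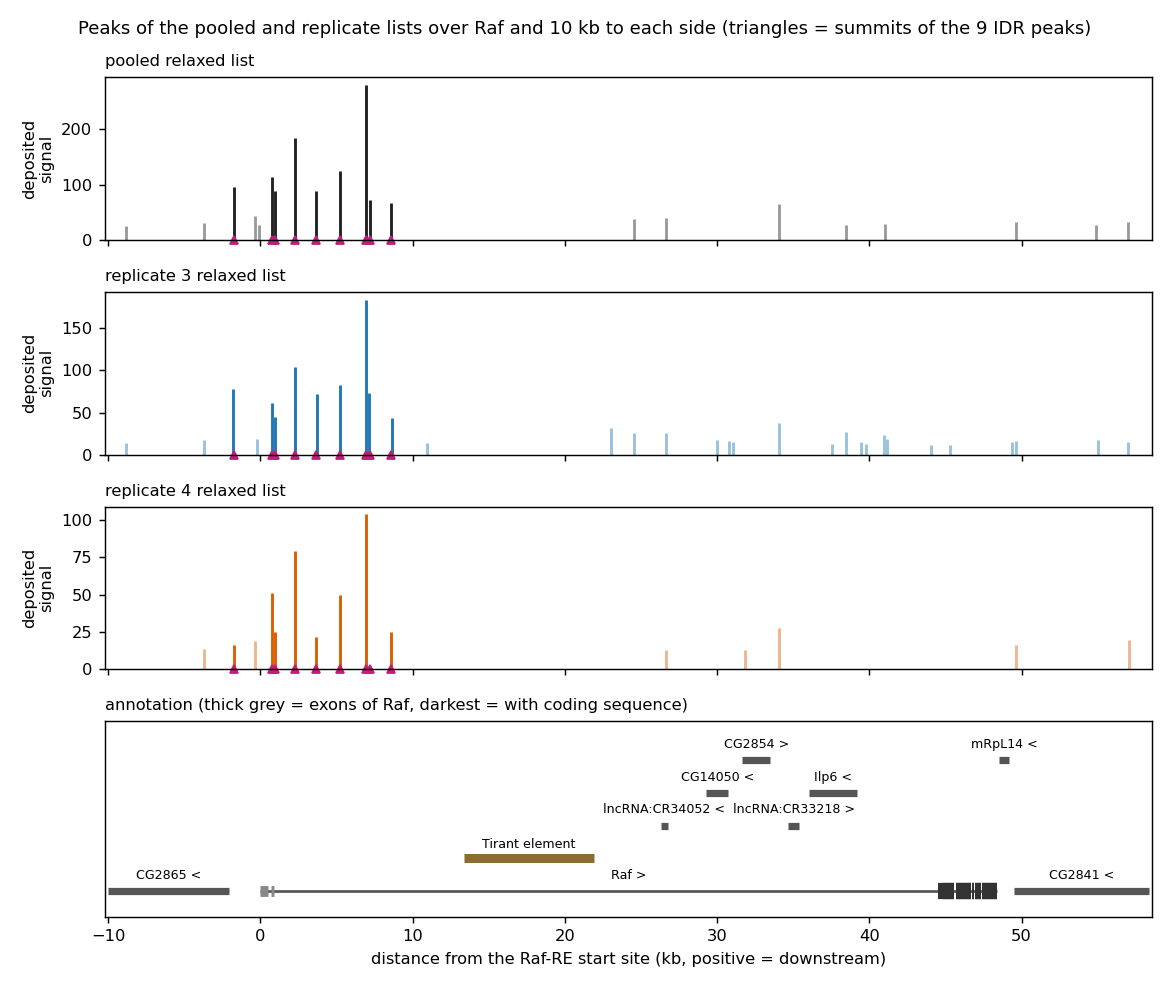
Deposited signal (vertical axes, no stated scale) of every peak of the pooled, replicate 3 and replicate 4 lists against distance from the Raf-RE start site in kb, with the annotation below; pale lines are peaks farther than 200 bp from any IDR summit and arrowheads beside gene names give the strand. The tall lines crowd the 5′ end of Raf, and the Tirant element, which holds 0 summits in each list, lies between them and the nested genes.

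Peak 1 was the member outside Raf. Its summit at X:2293706 lay between genes, 295 bp upstream of the start of CG2865, a gene of the minus strand, and 1760 bp upstream of the Raf-RE start. These start sites face away from each other across 2055 bp. Peak 1 was the only member within 500 bp of any annotated start site, 1 of 9 (11.1%, exact 95% binomial interval 0.281% to 48.2%), where 52.4% of all IDR peaks and 44.2% of the 274 on X were that close to one. The intervals cover counting error only, and the members are neighbours at 1 locus, not independent draws.

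Peak 1 stood differently in the replicates. Its pooled signal was 95.1, the peak strength of the authors' peak caller, with rank 745 of the 1445 IDR peaks. In replicate 3 a summit 8 bp away had signal 77.6 and rank 475, the fourth strongest among the members in that list. In replicate 4 the nearest summit, 47 bp away, had signal 16.1 and rank 12397, and its −log10 q-value was 0.0873 against the highest value of that list, 3.02. The peak nearest to CG2865 was thus strong in replicate 3 and far down the list in replicate 4.

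Peaks 2 and 3 were a close pair 754 and 954 bp downstream of the Raf-RE start. Peak 2 (summit X:2296220) lay in exon 2 of Raf-RE, a 5′ non-coding exon, and was the only member in an exon. Its pooled signal was 114 (rank 552), with signal 61.8 in replicate 3 at the same base and 51.3 in replicate 4 at 4 bp. Peak 3 (summit X:2296420), 200 bp farther into intron 2, had pooled signal 88.9 (rank 842), signal 45.3 in replicate 3 and 25.3 in replicate 4. The intervals of this pair overlap. Peak 3's own partner in replicate 4 ranked 2112, and it met the rule for recurrence through the stronger replicate 4 summit of peak 2, which lay within 200 bp.

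Peak 4 (summit X:2297743, in intron 2) was the second strongest member in all 3 lists. It had pooled signal 184 (rank 239), signal 104 in replicate 3 (rank 273) and 79.2 in replicate 4 (rank 216), with summits 0 and 8 bp away. Its deposited interval of 165 bp was narrower than the 410 bp given to 7 of the members and to 85.9% of all IDR peaks. Peak 7 was the other narrow member.

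Peak 5 (summit X:2299147, in intron 2) had pooled signal 89.0 (rank 839). Its signal was 71.9 in replicate 3 (rank 543, 46 bp away) and 22.0 in replicate 4 (rank 3518, 5 bp away). Like peak 1, it was among the strongest 1445 peaks of replicate 3 but not of replicate 4. Peak 6 (summit X:2300703) had pooled signal 126 (rank 460), 82.7 in replicate 3 (rank 418) and 49.7 in replicate 4 (rank 483), so that its ranks in the 3 lists lay close together.

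Peak 7 (summit X:2302436, 6970 bp into Raf-RE) was the strongest member in every list. It had pooled signal 280 (rank 125), 184 in replicate 3 (rank 116, 9 bp away) and 103 in replicate 4 (rank 140, 3 bp away), within a narrow interval of 239 bp. Its shoulder, peak 8 (summit X:2302640), lay 204 bp downstream in an overlapping interval and had pooled signal 72.6 (rank 1223). Replicate 3 listed peak 8 apart from peak 7, with signal 73.1 (rank 521, 13 bp away). Replicate 4 gave the pair 1 summit, 3 bp from peak 7 and 201 bp from peak 8, so peak 8 had no partner of its own there.

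Peak 9 (summit X:2304039) closed the cluster with pooled signal 66.9, rank 1435 of 1445. Its signal was 43.2 in replicate 3 (rank 1335, 78 bp away) and 25.1 in replicate 4 (rank 2167, 14 bp away). The list ends just below it: the weakest of all IDR peaks had signal 66.54 and the strongest pooled peak left out had 66.51. Peaks 8 and 9 were also the members below the highest −log10 q-value of the IDR list (3.24), at 2.43 and 2.14, while the other 7 stood at it, as did 60.1% of the list.

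**Figure D2:**
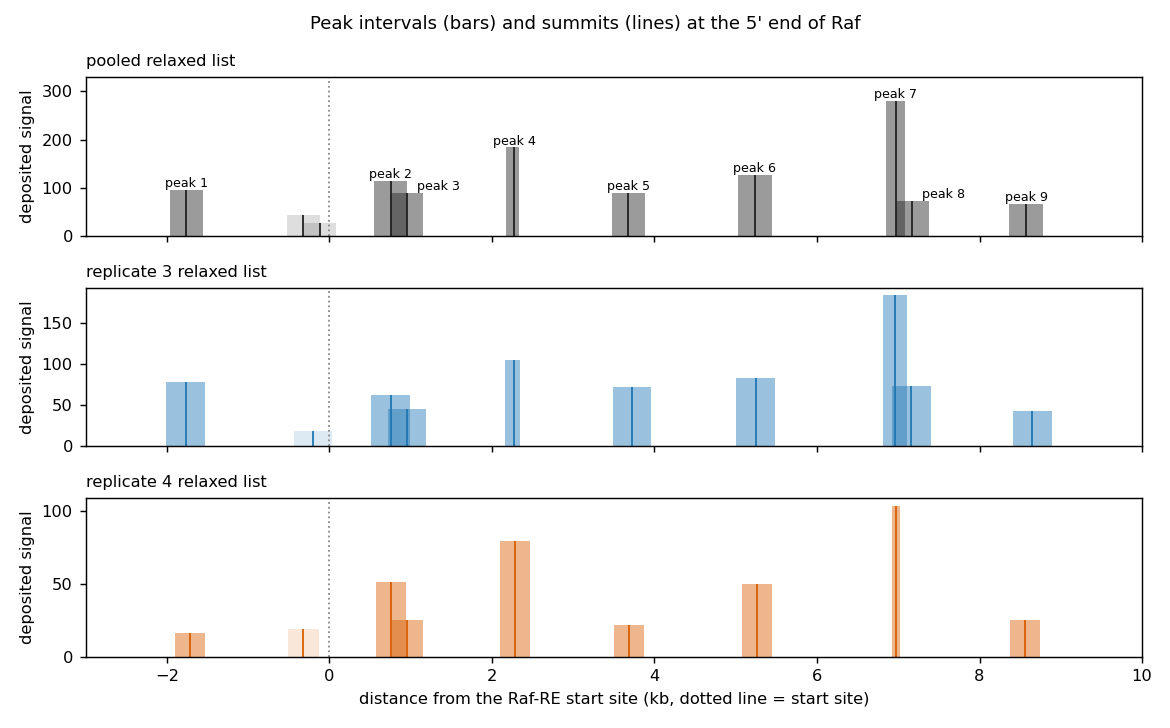
Deposited intervals (bars, height is the signal, no stated scale) and summits (lines) against distance from the Raf-RE start site in kb, for the pooled and replicate lists; pale bars are peaks outside the IDR list. Peak 7 is the tallest and peak 4 the next in all 3 panels, and peak 8 has a bar of its own in the pooled and replicate 3 panels but not in replicate 4.

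The 9 summits spanned 10333 bp, with 8 spacings of 200 to 2514 bp and a median of 1401.5 bp. Merging the overlapping pairs left 7 separate intervals that covered 2946 bp. No list on dm6 has summits closer than 199 bp, so 200 and 204 bp are near the smallest spacing found. Among all neighbouring IDR summits, 52 pairs, 3.61%, lay within 250 bp of each other.

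A run of this kind was not found elsewhere in the IDR list. When summits no more than 2514 bp apart were joined, the 1445 peaks gave 1245 runs, of which 1089 held 1 peak, and the longest run elsewhere held 4. The limit of 2514 bp is the widest spacing at Raf itself, so this count describes the cluster and is no test of it. The median distance to the nearest other IDR summit was 1323 bp for the members and 14618 bp for all IDR peaks. Beyond the cluster, the next IDR summit lay 146934 bp to the left, in an intron of Pgd, and 51864 bp to the right, in an intron of CG2841.

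Recurrence was uneven between the replicates. Of the 9 members, 5 (55.6%, exact 95% interval 21.2% to 86.3%) had a summit within 200 bp among the strongest 1445 peaks of both replicates, against 62.9% of all IDR peaks and 68.2% of those on X. In replicate 3 this held for 9 of 9 (83.2% of all IDR peaks), and in replicate 4 for 5 of 9 (75.8%). With only the nearest replicate summit counted, 4 of 9 recurred (peaks 2, 4, 6 and 7), against 61.5%. The share recurring in both replicates was near the background of the list, and the IDR list was itself made from both replicates.

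The remaining 4 members (peaks 1, 5, 8 and 9) were in the strongest part of replicate 3 only, as were 20.3% of all IDR peaks. In replicate 3 all 9 partners stood at the highest −log10 q-value of the list, 3.46, which 4.86% of its 30000 peaks reached. In replicate 4 the partners of peaks 2, 4, 6 and 7 stood at its highest value, 3.02, which 1.74% of its peaks reached. Those of peaks 1, 3, 5 and 9 lay from 0.0873 to 0.422. The members were taken from the strongest pooled peaks, so shares over whole relaxed lists are no background for them. By rank, 83.2% of all IDR peaks had a summit within 200 bp among the strongest 1445 of replicate 3, and 75.8% among those of replicate 4. Without replicate 3, the strongest 1445 peaks of replicate 4 put 4 summits in the region, and without replicate 4 those of replicate 3 put 9 there.

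**Figure D3:**
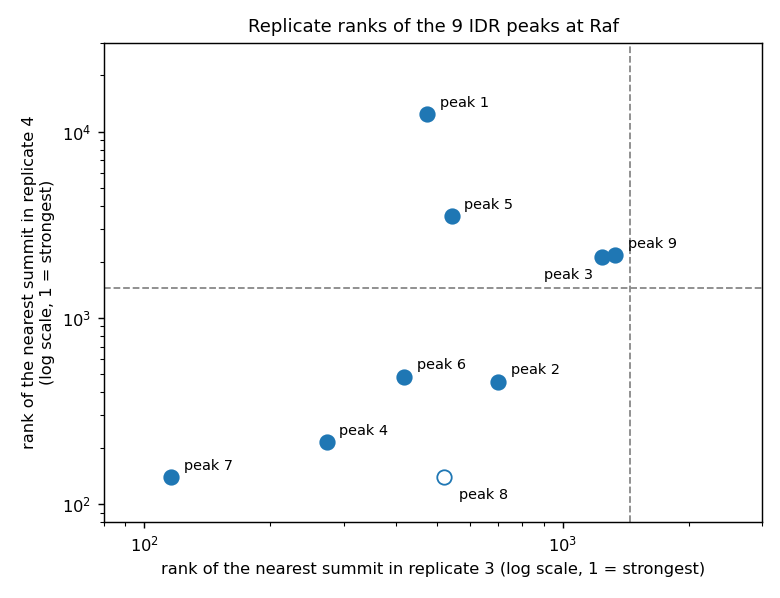
Rank of the replicate summit nearest to each of the 9 IDR peaks, replicate 3 on the horizontal and replicate 4 on the vertical axis (both log scales, 1 is strongest); dashed lines mark rank 1445, and the open circle is peak 8, whose nearest replicate 4 summit is that of peak 7. All points lie left of the vertical line, and peaks 1, 3, 5 and 9 lie above the horizontal one.

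By strength the cluster was ordinary. The median pooled signal of its members was 95.1, against 96.5 for all IDR peaks (66.5 to 9689) and 98.8 for those on X. At or above the median of the list lay 4 of 9 members, peaks 2, 4, 6 and 7, which are the ones that recurred by their own summits. Pooled signals derive from the same replicates, so this match is partly built in. By place it was mostly intronic, with 7 of 9 summits in introns against 48.2% of all IDR peaks and 65.7% of those on X. An exon held 1 of 9 (14.1% of all), and 1 of 9 was between genes (37.6% of all).

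The relaxed lists, which include weak peaks, placed summits over more of the locus. Per 10 kb, the Raf region held 1.32 IDR summits against 0.116 over all of X, 3.07 pooled summits against 1.34, 4.68 of replicate 3 against 1.90 and 2.19 of replicate 4 against 1.70. Over all arms the densities were 0.108 for IDR summits, 1.72 for pooled, 2.24 for replicate 3 and 2.24 for replicate 4. The region thus held more than the arms in the IDR, pooled and replicate 3 lists, while in replicate 4 it held more than X and slightly less than the arms. These counts include the summits at the members, for which the region was chosen, so the densities are not separate from that choice. Farther than 200 bp from any IDR summit lay 12 of the 21 pooled, 23 of the 32 replicate 3 and 7 of the 15 replicate 4 summits. Intron 2 of Raf-RE, 43637 bp long, held 7 IDR, 12 pooled, 22 replicate 3 and 9 replicate 4 summits. The other introns of Raf-RE held 0 in every list, but they are only 64 to 195 bp long, too short for a comparison with intron 2.

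Of the 21 pooled peaks, 12 fell outside the IDR list, with signals of 25.0 to 64.8. A replicate 3 summit lay within 200 bp of all 12, against 61.6% of the 21585 pooled peaks outside the IDR list, and a pair of them shared the same one, so that 11 summits were involved. A replicate 4 summit lay within 200 bp of 6 of the 12, against 61.4%, and these 6 had one in each replicate, against 31.3%. The strongest, at X:2329538 in intron 2, had signal 64.8 and rank 1516, with rank 1730 in replicate 3 and 1628 in replicate 4. It lay 621 bp upstream of the start of lncRNA:CR33218, a non-coding gene nested in Raf. Its ranks in the replicates were closer to each other than those of IDR peaks 1 and 5.

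The start sites of Raf carried weak peaks at most. Near the Raf-RE start, pooled summits lay 318 bp upstream (X:2295148, signal 42.7, rank 3375) and 116 bp upstream (X:2295350, signal 27.1, rank 13103). The former matched a replicate 4 summit at the same base with signal 18.8 (rank 6773), and replicate 3 had 1 summit between them, 200 bp upstream of the start, with signal 18.9 (rank 9261). Around the Raf-RA start, from which the shorter transcript with the same coding start is made, the nearest summit was 3788 bp away in the pooled list, 4825 bp in replicate 4 and 493 bp in replicate 3, where its signal was 12.1 (rank 26350). The nearest IDR summit to the Raf-RA start was 15605 bp away, in CG2841.

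The other genes of the region had no IDR summit within them inside the 10 kb limits. Ilp6, an insulin-like peptide gene nested in intron 2 on the opposite strand, held 1 pooled summit (X:2333921, signal 27.0), 2 in replicate 3 and 0 in replicate 4. Of the other nested genes, lncRNA:CR34052 held 1 summit in the pooled list and in each replicate list. CG14050 held 1 in replicate 3, CG2854 held 1 in replicate 4 and lncRNA:CR33218 held 0 in every list. Past the 3′ end of Raf, mRpL14, which encodes a mitochondrial ribosomal protein, held 0 in every list. The outer genes CG2865 and CG2841 reach past the 10 kb limits. Over its whole length, CG2865 held 2 pooled, 5 replicate 3 and 2 replicate 4 summits. CG2841 held 6 pooled, 10 replicate 3 and 6 replicate 4 summits over its own.

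Between the cluster and the nested genes lay a stretch without peaks. It contains the annotated element Tirant{}24, a retrotransposon with long terminal repeats at X:2308848-2317374 (8527 bp, minus strand), which starts 4809 bp past peak 9 and held 0 summits in each list. The longest gap between summits in the region was 15986 bp in the pooled list, 12100 bp in replicate 3 and 18059 bp in replicate 4, and each of these gaps spans the element. The element makes up 53.3%, 70.5% and 47.2% of these gaps, in that order. Of the 695 annotated elements of at least 5000 bp, 2.30% held a pooled summit, 2.01% a replicate 3 summit and 5.32% a replicate 4 summit. How many reads could be placed within such repeats was not tested, and the lists do not give it.

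Few genes were as crowded as Raf. Of 13945 protein-coding genes, 9611 (68.9%) had no IDR summit inside or within 10 kb, and 4 had 9 or more: CG1677 with 11, and Raf, ush and Smr with 9 each. By summits inside the gene, only CG1677 (11 over 124709 bp) had more than the 8 of Raf. CG2865, whose 10 kb flank reaches into Raf, counted 8 of the same peaks by that rule. Among the 746 genes between 0.5 and 2 times the length of Raf, the median was 0 summits inside, 577 had none and the highest count was 7. Outside the Raf region, the genes next in order were CG4004 with 8 within 10 kb, which shares peaks with its neighbour Smr, and CHES-1-like and shn with 7 each. The tie at 7 adds shn to the 5 genes the naming rule asked for, and it was named after its values were seen.

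**Figure D4:**
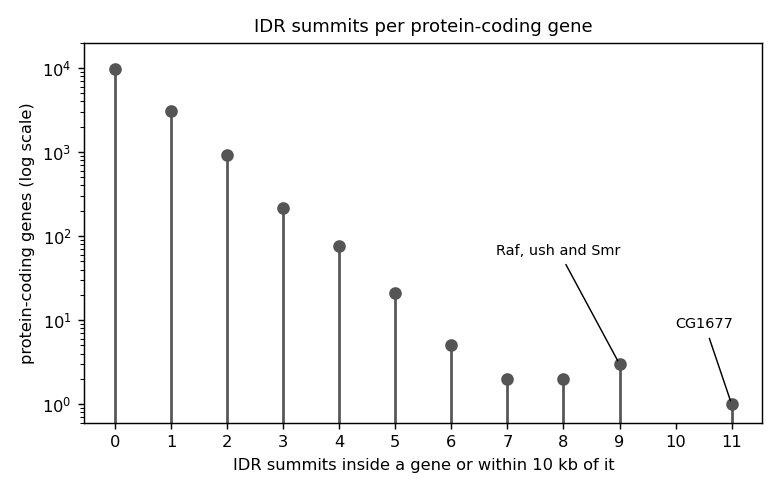
Number of protein-coding genes (vertical axis, log scale) by the number of IDR summits inside the gene or within 10 kb of it (horizontal axis). Raf, ush and Smr have 9 and CG1677 has 11, while 9611 genes have 0.

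Other crowded windows of 20 kb on X were set beside the cluster. Summits in introns were 7 of 9 at Raf, 3 of 8 at Smr and CG4004, 7 of 7 at CG1677 and 6 of 7 at CHES-1-like. At Smr, a transcriptional corepressor gene, and CG4004, 8 summits spanned 19620 bp, of which 3 were within 500 bp of a start site, with signals of 76.9 to 474 (median 110). In CHES-1-like, a forkhead factor gene, 7 summits spanned 12084 bp, 2 of them near a start site, with signals of 73.5 to 250 (median 94.7). Within CG1677, 7 summits spanned 15159 bp, 0 of them near a start site, with signals of 66.9 to 123 (median 78.8). Raf had the shortest span of the 4 windows, 10333 bp, and the most summits. CG1677 was like Raf in lying mostly in introns and away from start sites.

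The replicates also weighed these windows differently. Counted were IDR peaks with a summit within 200 bp among the strongest 1445 of a replicate. Raf had 9 for replicate 3 and 5 for replicate 4, while CG1677 had 4 for replicate 3 and 7 for replicate 4. Smr with CG4004 had 7 and 6, and CHES-1-like had 7 and 6. Recurrence in both replicates was 5 of 9 at Raf, 5 of 8 at Smr and CG4004, 4 of 7 at CG1677 and 6 of 7 at CHES-1-like. No test of these differences was made, since the windows were chosen for their counts.

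**Figure D5:**
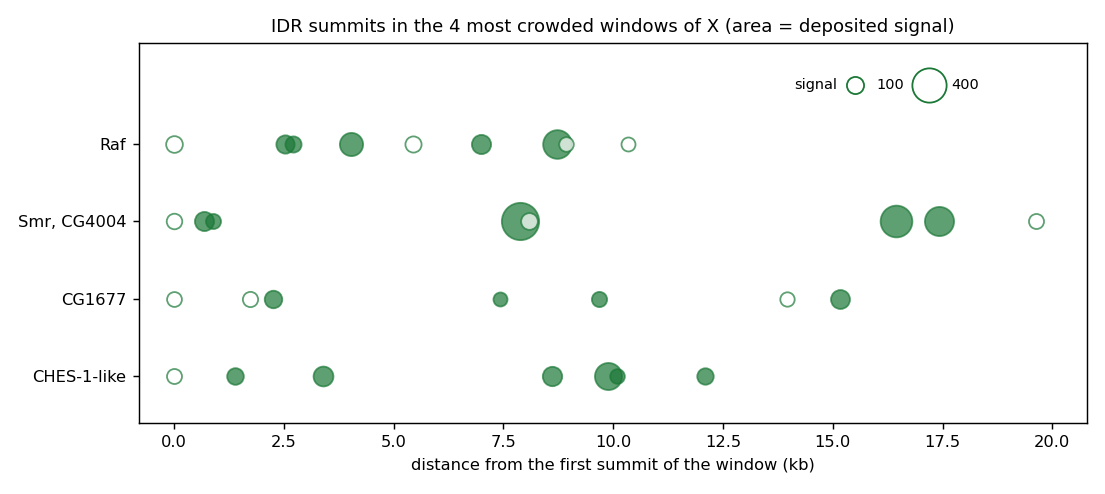
IDR summits in the 4 most crowded windows of 20 kb on X against distance from each window's first summit in kb; circle area gives the deposited signal, and filled circles recur among the strongest 1445 peaks of both replicates within 200 bp. Raf has 9 summits over 10333 bp, 5 of them filled, and the other windows spread 7 or 8 summits over 12084 to 19620 bp.

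The genes that work with Raf were read from a list of 36 genes of the Ras pathway, made with earlier results of these data known. An IDR summit lay inside or within 500 bp of 10 of the 36 (27.8%), against 10% of all protein-coding genes. Raf, chosen for its summits, is one of these, and without it the count was 9 of 35 (25.7%). The median gene length was 8899 bp in the list and 2166 bp over all genes, and its part in the count was not tested. Near a start site the shares were 4 of 36 (11.1%) against 6.75% of all genes, and within 10 kb 18 of 36 (50%) against 31.1%. Without Raf the last count was 17 of 35 (48.6%).

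By role, peaks were counted inside a gene or within 500 bp, where 10% of all protein-coding genes had one. Upstream of Raf, 2 of 8 receptors had a peak. InR, the insulin receptor, had 2 peaks, the stronger with pooled signal 143.4 in an intron, and both recurred. The FGF receptor htl had 1 of signal 70.1, which did not recur in both replicates. The receptors tor and Egfr had 0. In the adaptor group, 4 genes that include the phosphatase csw, Shc had 1 peak of signal 297 within 500 bp of its start. The adaptor drk, which brings the exchange factor Sos to receptors, had 1 of signal 103 in an intron. The 4 regulators of the GTPase, Sos among them, had 0 by this rule. Within 10 kb, Gap1 and Nf1 had 2 summits each and the other regulators had 0. Among the receptors and the adaptor group, the genes at 0 by the 500 bp rule were also read within 10 kb. There dos had 3 summits, Pvr and csw had 1 each and the others had 0.

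Ras85D, the fly Ras that activates Raf, carried the strongest peak of the list. It lay 241 bp upstream of the Ras85D start with pooled signal 1307 (rank 19), and it recurred in both replicates. The strongest peak of Raf, at 280, was weaker but 1 of 8 in its gene, whereas Ras85D had 1 in all. Next to Raf in the kinase relay, Dsor1 and rl had 0 peaks.

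Among the scaffolds, 0 of 3 had a peak inside or within 500 bp, and among the inhibitors 0 of 4, against 10% of all protein-coding genes. Within 10 kb, the scaffold cnk had 2 summits and the inhibitor sty had 3, while the others of these roles had 0. Of the 4 transcription factors linked to the pathway, the repressors aop and cic had 1 peak each, of signals 77.7 and 73.0, and neither recurred in both replicates. The other factors of this role had 0 by that rule, and within 10 kb pnt had 1 and ttk 0. Of the 4 genes for 14-3-3 proteins and chaperones, partners of Raf kinases, Hsp83 had 1 peak of signal 143.1 in an intron and 14-3-3zeta had 1 of signal 75.3 near a start site, and both recurred. Apart from InR with 2 and Raf with 8, every gene of the list that had a peak inside or within 500 bp had 1.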

How the data were processed

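The authors deposited peak lists on dm6: an IDR list, a pooled relaxed list and a relaxed list for each of the 2 replicates, which fixes the grouping (1 group). Each deposited list gives a signal per peak, whose scale is not stated, and a deposited −log10 q-value, per the file layout. No source used here gives the aligner, the peak caller or the IDR threshold; depth is unknown, and signals were not compared as amounts between lists. Deposited lists on dm3 were not used here.

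Members and gene lists were chosen with earlier results of these data known. Genes were taken from Ensembl release 115 (BDGP6.54), transposable elements apart. All dm6 summits on the arms were used, with Python 3.11.15, pandas 2.3.3, numpy 2.4.6 and scipy 1.17.1, and ranks run by signal within a list. Named genes were Raf, every gene within 10 kb of it, Ras list genes with a peak, and genes of the most crowded windows and counts. Ras list genes at 0 that are named were singled out for their role beside Raf or for their summits within 10 kb. Exact binomial intervals at 95% cover counting error only. No tests were made. Counting was checked on simulated positions. Gap1 was matched by synonym.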

Additional observations from a re-analysis of the deposited data

How the results depend on the processing

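The 9 IDR peaks at Raf became 4 when only the stronger 50% of the list was kept, and 4 to 9 when the strongest 1445 peaks of 1 replicate took the list's place. The share recurring in both replicates, 55.6%, became 88.9% with the whole relaxed lists, and 55.6% to 100% with 1 replicate alone. With the whole relaxed lists, 99.5% of all IDR peaks had a replicate 3 summit within 200 bp and 96.3% a replicate 4 summit, so 88.9% is no high share. Of 45 alternatives to all results, 33 kept the value close (within 1.5 times for a count, within the exact interval for a share) and 12 moved it, 6 of these for motifs. The tally is lenient: the interval for the share was 21.2% to 86.3%, and motifs absent at every width counted as kept. Merging overlapping peaks, which gave 7, and counting the nearest replicate summit only, which gave 44.4%, were chosen after seeing the data. No paired analysis was possible because there is 1 group. Unknown depth limits every statement on weak peaks.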
